A study of Mus musculus with 6 samples.

Results

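The genes described here responded to knockdown of Ptbp1 in the authors' exon usage test (DEXSeq, as the deposited tables are named) and had no entry in the matching table for knockdown of Pnky, a long noncoding RNA. They were chosen by the authors' adjusted p: a gene was taken where at least 1 of its exon bins, which are whole exons or pieces of them counted separately, stood in the authors' deposited table for Ptbp1 knockdown, which holds bins with an adjusted p under 0.01, and none of its bins stood in the table for Pnky knockdown. Of the 602 genes in the Ptbp1 table, 527 met this rule, with 760 of its 958 bins, and the other 75 genes had a row in both tables. Both tables together held 702 genes. Absence from the Pnky table means only that no bin passed the authors' threshold there. Whether the responses to the knockdowns differ was not tested, and both tables rest on the same control libraries.

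PTBP1, polypyrimidine tract-binding protein 1, binds pyrimidine-rich stretches of pre-mRNA and represses many alternative exons in stem cells, glia and other non-neuronal cells. Its loss during neuronal differentiation lets neuronal exons be included, including an exon that permits production of its paralog PTBP2. Pnky is known as a nuclear RNA of neural stem cells that binds PTBP1.

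RNA came from cultured mouse cells (strain C57/B6) of the ventricular-subventricular zone, a niche of neural stem cells that persists after birth, derived at postnatal day 5 to 7 and kept in medium with 5% serum, pituitary extract, EGF and FGF. The control cells (shCtrl) carried a short hairpin RNA against luciferase and the knockdown cells (shPtbp1) one against Ptbp1, both in the pSICO-R vector, and all were sorted for its GFP marker or for GFP and mCherry together. Each group had 2 poly(A)-selected, strand-specific libraries. The shPnky group enters here only through the absence of the genes from its table. The labels give no hairpin sequence, give no marker for each library and name no separate animals or cultures behind the replicates, so the spread between these may be technical.

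The deposited counts cover called bins only and are not library sizes. They summed to between 3514859 and 3920040 reads per library over the whole Ptbp1 table and to between 2503230 and 2797090 over the 760 bins, with a median of 902 reads per bin and library. Reads were scaled by the sum over the table, and the log2 ratio of scaled reads, shPtbp1 over shCtrl, is given with the standard error (SE) from 2 libraries per group. Under this scaling the median log2 ratio of all 958 listed bins was 0.13, and scaling by the median of ratios moved it by -0.12, so read ratios are to be read against 0.13. Where a bin is said to have gained or lost reads, its scaled reads in both shPtbp1 libraries lay outside the range of the controls, with no test. Replicates differed by a median of 0.06 on the log2 scale in shCtrl and 0.07 in shPtbp1 over the 760 bins. Replicate counts were farther apart than counting error allows (chi-square per degree of freedom of 2.65 and 4.31), so no library was counted as a duplicate. In bulk RNA, fewer cells of a type and less RNA per cell cannot be told apart.

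Ptbp1 was examined first. Its bin 13 held 22334 and 19594 control reads and 4967 and 4961 shPtbp1 reads, a log2 ratio of -2.03 ± 0.02, so both libraries labelled shPtbp1 held fewer reads of the targeted gene than either control library. The usage fold of this bin in the authors' deposited table was 0.03. Ptbp2, the paralog whose own exon PTBP1 represses, had 2 bins. Bin 4 held 313 and 290 control reads and 673 and 700 shPtbp1 reads, and the unsuffixed bin (the bin of a gene that carries no number) held 5760 and 5423 control reads and 9075 and 9007 shPtbp1 reads. Bin 4 took a share of 5.12% ± 0.0550 in shCtrl and 7.06% ± 0.217 in shPtbp1 (SD, n = 2) of the listed reads of Ptbp2. Both Ptbp2 bins were higher in reads in both shPtbp1 libraries.

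The authors tested 160290 bins, recovered from their p-values and adjusted p-values, and called 0.598% of them. Usage, the authors' measure of a bin relative to the rest of its gene, rose in 396 member bins and fell in 351, while 13 had no listed fold. Over all tested bins 0.322% were called higher and 0.268% lower. The rule used this contrast, so these counts describe the members and nothing is read from them. Higher calls made up 53.0% of the member bins with a fold, 60.6% in the 75 genes of both tables and 54.6% in the whole table. Among the 130 member bins with a mean under 100 control reads, usage was higher in 91, lower in 26 and without a fold in 13. Among the 630 other member bins it was higher in 305 and lower in 325. Taking for each gene its leading bin, the one with the smallest adjusted p, usage was higher in 253 genes and lower in 262.

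Of the members, 403 genes had 1 listed bin, 80 had 2, 21 had 3 and 10 had 4, and the largest number was 14, in Ncam1. Since called bins alone are listed, these numbers do not give the extent of a change along a gene. Of the 124 genes with 2 or more bins, 98 had bins in both directions, beside 130 of 160 such genes in the whole table. Usage is relative to the rest of the gene, so opposite signs are partly built in and nothing is read from this count. The listed reads of these 124 genes, summed per gene, had a median log2 ratio of 0.09, and in 96 of them the sum changed by less than 1.5-fold. Scaled reads of the 2 groups did not overlap in 692 of the 760 bins (91.1%), 395 of them higher and 297 lower in shPtbp1, beside 91.4% of all listed bins. With scaling by the median of ratios these counts were 343 higher and 363 lower, so the excess of gains in reads rests on the scaling.

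Read changes of 2-fold or more were found in both directions. At least 2-fold more scaled reads were found in 120 bins of 100 genes and at least 2-fold fewer in 51 bins of 33 genes. A bin with few control reads has little room to fall 2-fold. The excess of gains is therefore not read as a trait of the members. With scaling by the median of ratios the counts were 104 and 61 bins. In the 75 genes of both tables, with 198 bins, they were 42 bins of 13 genes and 5 bins of 3 genes with the first scaling.

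Usage and reads had the same sign in 618 of the 747 bins with a fold. Among genes with 1 listed bin, usage and reads were both higher in 168 and both lower in 150. In 32 such genes usage was higher and reads were lower, and in 42 usage was lower and reads were higher; usage is relative to the gene, so the signs can differ. Ptbp1 itself is of this kind.

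**Figure D1:**
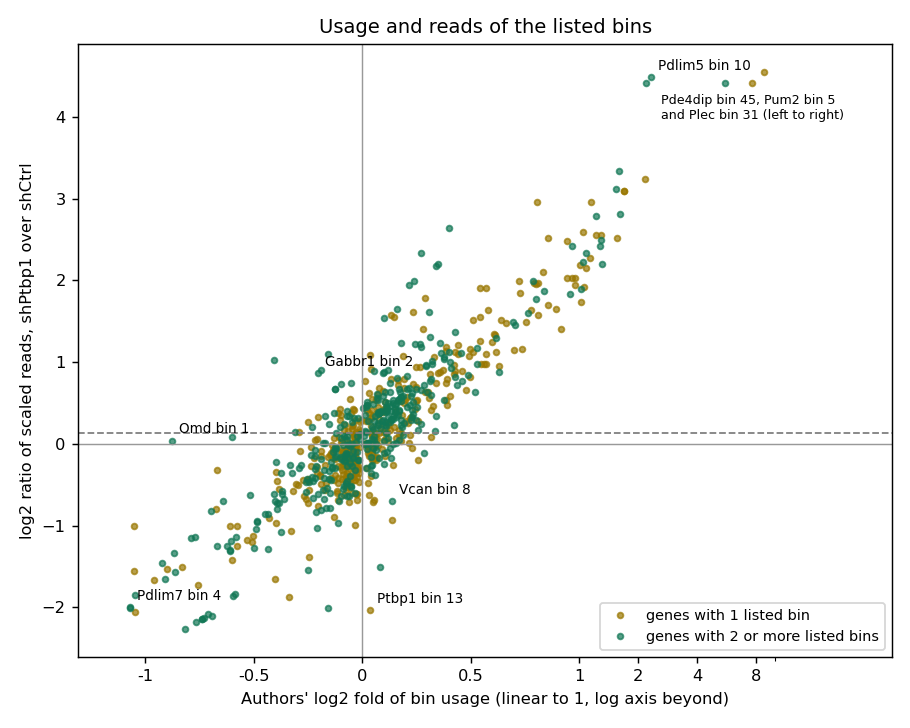
Authors' log2 fold of bin usage (horizontal, linear to 1 and logarithmic beyond) against the log2 ratio of scaled reads, shPtbp1 over shCtrl (vertical), for the 747 member bins with a fold. Each point is 1 bin, brown for genes with 1 listed bin and green for genes with more, and the dashed line is the median of all listed bins, 0.13; 618 points have the same sign on both axes, and Ptbp1 bin 13 and Vcan bin 8 lie below 0 in reads with usage above 0.

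The threshold left members just inside it. The 5 bins with the largest adjusted p, from 0.00990 to 0.00995 in the authors' deposited table, were in Gtpbp3, Tor1aip2, Opa1, Casc5 and Puf60. Casc5 bin 7, of a kinetochore gene, held 1720 and 1571 control reads and 1107 and 1160 shPtbp1 reads. Puf60 bin 7, of a splicing factor gene, held 512 and 513 against 619 and 569. Bins outside the threshold are not in the table, so values just outside it are not analysed here.

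Redistribution within a gene was measured as the share of the gene's listed reads in each listed bin, in percent, with the SD of 2 libraries (n = 2 for every share below). Uncalled bins are not in the table, so a share is relative to called bins only and can move against usage, which occurred in 31 member bins. The shares of the groups did not overlap in 343 of 357 bins (96.1%), beside 96.7% of all such listed bins. Replicates differed by a median of 0.484 percentage points in shCtrl and 0.429 in shPtbp1, and the median absolute difference between groups was 3.74 points. The same median was 2.11 points in the genes of both tables, over 159 bins of 36 genes, beside the 357 bins of 124 member genes. Shares are smaller where a gene has more listed bins, so these medians are not compared. In 44 member genes a bin moved by at least 10 points, 76 of 357 bins in all, beside 96 of 516 bins in the whole table.

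Several of the largest shifts were exchanges between 2 bins of a gene. Sept6 encodes a septin, a GTPase that assembles into filaments at the cell cortex. Its unsuffixed bin held 218 and 235 control reads and 636 and 576 shPtbp1 reads, and its bin 1 held 1082 and 934 control reads and 574 and 547 shPtbp1 reads. The share of the unsuffixed bin was 18.4% ± 2.36 in shCtrl and 51.9% ± 0.899 in shPtbp1, so the minor bin of the control cells held most of the listed reads after knockdown. H13, the gene of signal peptide peptidase, a membrane protease of the endoplasmic reticulum, went to an even division. H13 bin 11 held 923 and 774 control reads and 2397 and 2198 shPtbp1 reads, while bin 10 held 2842 and 2486 control reads and 2291 and 2297 shPtbp1 reads, which left bin 10 with 75.9% ± 0.547 in shCtrl and 49.99% ± 1.58 in shPtbp1.

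Synpo and Synpo2 encode synaptopodins, actin-binding proteins of dendritic spines and of contractile cells. Both moved from the unsuffixed bin towards numbered bins. The unsuffixed bin of Synpo had a share of 56.2% ± 0.433 in shCtrl and 29.1% ± 0.335 in shPtbp1, and that of Synpo2 52.4% ± 2.16 in shCtrl and 23.2% ± 0.191 in shPtbp1. In both genes the numbered bins held more reads in each shPtbp1 library than in either control. Utp14b, a gene of ribosomal RNA processing, lost reads in bin 4 (469 and 435 against 205 and 220) and gained them in its unsuffixed bin (239 and 216 against 361 and 306) and bin 3 (141 and 142 against 240 and 243). The share of its bin 4 was 55.0% ± 0.273 in shCtrl and 27.0% ± 2.24 in shPtbp1.

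Other exchanges were one-sided, with 1 bin changed far more than its partner. In Mink1, a kinase gene of the misshapen family, bin 20 held 165 and 137 control reads and 310 and 324 shPtbp1 reads, while bin 17 held 168 and 153 against 134 and 125. Bin 17 had a share of 51.6% ± 1.63 in shCtrl and 29.0% ± 1.66 in shPtbp1. Tnk2, the gene of the Cdc42-binding kinase ACK1, gained reads in bin 11 (307 and 237 against 597 and 538), whereas the reads of its unsuffixed bin overlapped between groups (541 and 469 against 497 and 490). Its bin 11 had a share of 34.9% ± 1.86 in shCtrl and 53.5% ± 1.58 in shPtbp1. Omd, which encodes the small proteoglycan osteomodulin, had the largest share difference among genes with a mean of at least 200 listed reads. Omd bin 2 held 61 and 54 control reads and 301 and 266 shPtbp1 reads, bin 1 overlapped at 90 and 85 against 75 and 99, and the share of bin 1 was 60.4% ± 1.09 in shCtrl and 23.5% ± 5.07 in shPtbp1. At these counts the Omd shares rest on few reads. Fam154b was also low, with 207 and 180 control reads and 113 and 96 shPtbp1 reads in the unsuffixed bin, whose share was 81.5% ± 3.12 in shCtrl and 61.0% ± 2.99 in shPtbp1.

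**Figure D2:**
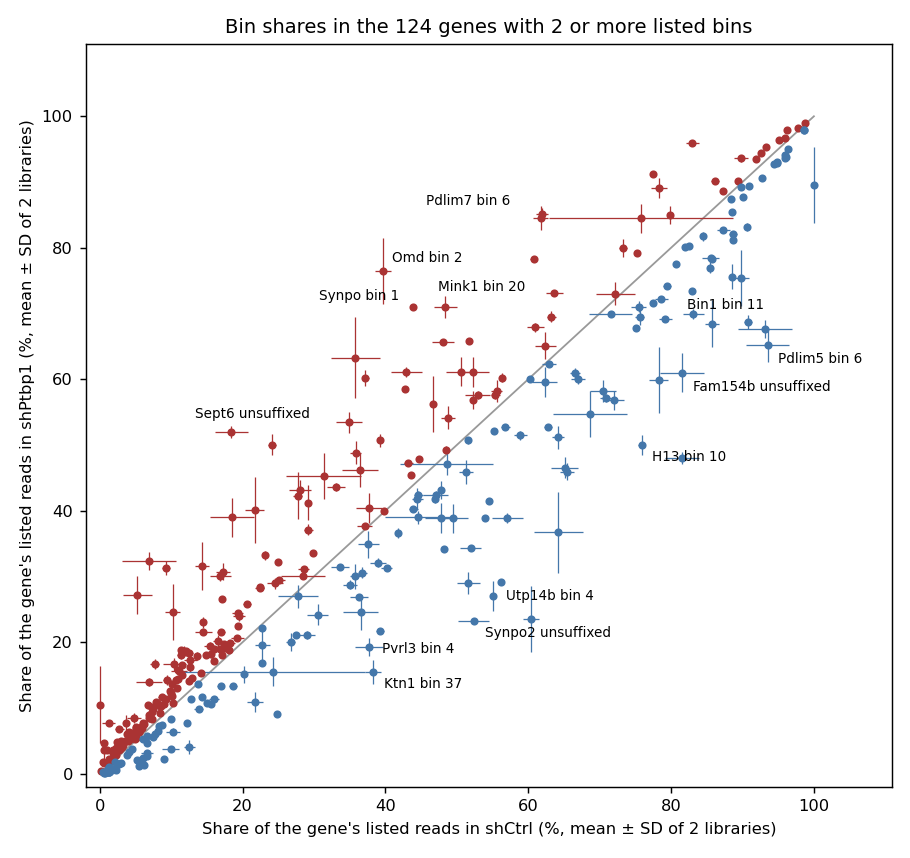
Share of a gene's listed reads in each listed bin, in percent, in shCtrl (horizontal) and shPtbp1 (vertical), for the 357 bins of the 124 genes with 2 or more listed bins. Points are means and bars the SD of 2 libraries; red bins had the higher share in shPtbp1 (194) and blue bins the lower (163), and bins far from the diagonal, such as Sept6 unsuffixed at 18.4% and 51.9%, differed most between the groups.

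Neighbouring bins could be followed as runs. Members held 143 pairs of consecutively numbered bins with a fold, in 75 genes, and in 93 pairs the usage of both changed the same way. A read that spans a junction may be counted in both neighbours, so such bins are not independent. The tables give neither positions nor the order of numbering relative to the transcript, so a run of bins cannot be placed in an exon structure here.

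A run of losses was found in Zak, the gene of a stress-activated MAP kinase kinase kinase that is made in a long and a short form. Its bins from 12 to 20 all fell in usage. Bin 20 held 712 and 631 control reads and 147 and 155 shPtbp1 reads, and bin 13 held 58 and 41 control reads and 8 and 11 shPtbp1 reads, while bin 11 held 6579 and 5851 control reads and 6674 and 6686 shPtbp1 reads. Bin 11 had a share of 83.0% ± 0.906 in shCtrl and 95.9% ± 0.375 in shPtbp1, and bin 20 had 8.96% ± 0.0757 in shCtrl and 2.17% ± 0.0700 in shPtbp1. Each of bins 12 to 20 was lower in both shPtbp1 libraries than in either control.

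Ncam1, the neural cell adhesion molecule gene, split into a falling and a rising block. Its unsuffixed bin and bins 1 to 3 fell, and its 10 bins from 4 to 18 rose in usage. The unsuffixed bin held 8997 and 8490 control reads and 3444 and 3376 shPtbp1 reads and bin 4 held 8481 and 7833 control reads and 12659 and 12465 shPtbp1 reads. Atat1, which encodes the acetyltransferase of alpha-tubulin, lost reads in its unsuffixed bin (512 and 516 against 234 and 187), bin 1 (357 and 277 against 141 and 127) and bin 2 (391 and 297 against 155 and 144), and its bin 3 took 77.4% ± 0.332 in shCtrl and 91.2% ± 0.412 in shPtbp1. Agap3, an ARF GTPase-activating protein gene, rose in bins 1 to 5 and fell in bins 9, 12, 16 and 17. Agap3 bin 4 held 906 and 756 control reads and 1110 and 1119 shPtbp1 reads and bin 17 held 2479 and 2024 control reads and 1749 and 1716 shPtbp1 reads. The differences in Agap3 were small beside those of Zak and Ncam1, but the 2 groups did not overlap in any of its 9 bins.

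**Figure D3:**
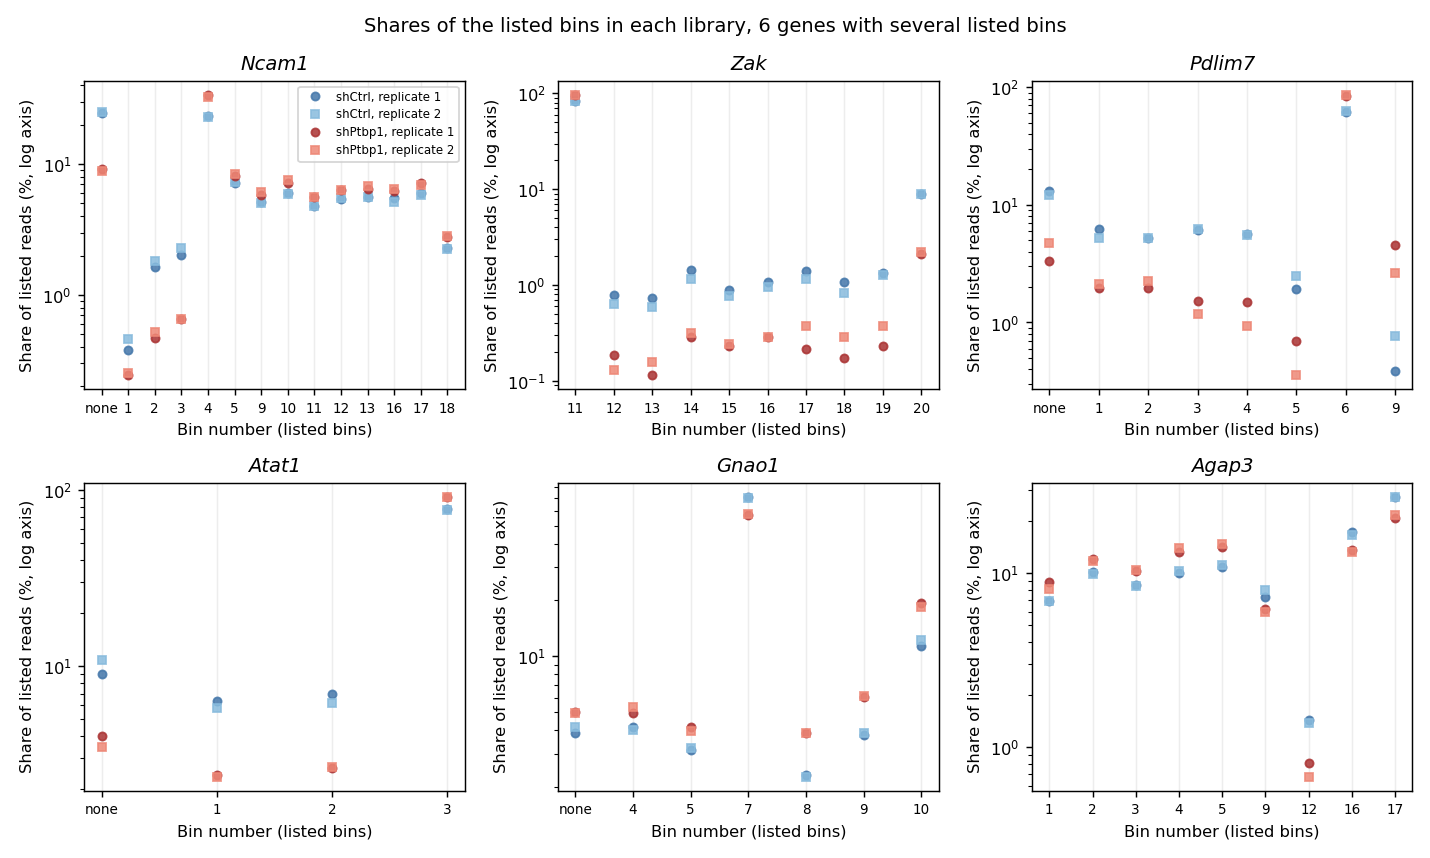
Share of the gene's listed reads (percent, log axis) in each listed bin, by bin number, for Ncam1, Zak, Pdlim7, Atat1, Gnao1 and Agap3; "none" marks the unsuffixed bin. Each point is 1 library, blue for shCtrl and red for shPtbp1; in Zak the shPtbp1 points lie below the control points in bins 12 to 20 and above them in bin 11, and in Ncam1 they lie below in the first 4 bins shown and above in the rest.

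Among genes with 1 listed bin and a mean of at least 50 reads, the 8 highest ratios were led by Ap2a1. It encodes the alpha subunit of AP-2, the adaptor that couples clathrin to cargo at the plasma membrane. Ap2a1 bin 8 held 41 and 32 control reads and 305 and 302 shPtbp1 reads, a log2 ratio of 3.09 ± 0.10. Porcn encodes the acyltransferase that lipidates Wnt proteins, and its bin 7 held 30 and 17 control reads and 185 and 170 shPtbp1 reads. Pfkfb3, which makes the glycolytic activator fructose 2,6-bisphosphate, had 19 and 11 control reads and 88 and 86 shPtbp1 reads in bin 2. All 3 bins were low in both controls, and their shPtbp1 libraries lay close together.

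Rtn3, a reticulon gene of endoplasmic reticulum tubules, had 27 and 8 control reads and 115 and 83 shPtbp1 reads in bin 7, and the control libraries differed from each other more than the shPtbp1 libraries did. Its log2 ratio of 2.55 ± 0.80 was 3.52 without shCtrl replicate 1. Clip2, a microtubule plus-end protein gene, had 48 and 58 control reads and 270 and 203 shPtbp1 reads in bin 8. Iqsec2, an exchange factor for ARF6 at excitatory synapses, held 20 and 32 control reads and 122 and 101 shPtbp1 reads in bin 3. The remaining genes of this group were the mitochondrial carrier gene Slc25a14 (45 and 55 against 218 and 184 in bin 1) and Phldb1 (55 and 47 against 210 and 184 in bin 9).

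After Ptbp1, the lowest ratio was that of Dll3, a Notch pathway ligand, with 194 and 146 control reads and 50 and 39 shPtbp1 reads in bin 3 and a log2 ratio of -1.87 ± 0.21. Flnc, the filamin C gene, held 216 and 106 control reads and 47 and 49 shPtbp1 reads in bin 30, with the controls farther apart than those of Dll3, Pola1 and Scarb1. Pola1, the catalytic subunit of DNA polymerase alpha, held 163 and 137 control reads and 42 and 49 shPtbp1 reads in bin 25. Scarb1, the receptor for high-density lipoprotein, held 497 and 387 control reads and 144 and 155 shPtbp1 reads in bin 1. The groups did not overlap in any of these bins.

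Eml4, a microtubule-associated protein gene, had 210 and 235 control reads and 73 and 88 shPtbp1 reads in bin 3. Pafah2, a platelet-activating factor hydrolase gene, had 371 and 313 control reads and 129 and 124 shPtbp1 reads in bin 3. Dtnb encodes beta-dystrobrevin of the dystrophin complex, and its bin 18 held 373 and 319 control reads and 146 and 144 shPtbp1 reads. For Dll3, Pola1 and Pafah2 the usage folds in the authors' deposited table were -0.34, -0.40 and -0.25, smaller in size than their read ratios. This is not particular to these genes. Over all member bins the median absolute usage fold was 0.148 and the median absolute log2 read ratio 0.441. Bins with large gains show the same gap, such as Ap2a1 bin 8 with a usage fold of 1.68 and a read ratio of 3.09. The 2 measures are unlike, so the gap in size is not read as a change of the whole gene.

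**Figure D4:**
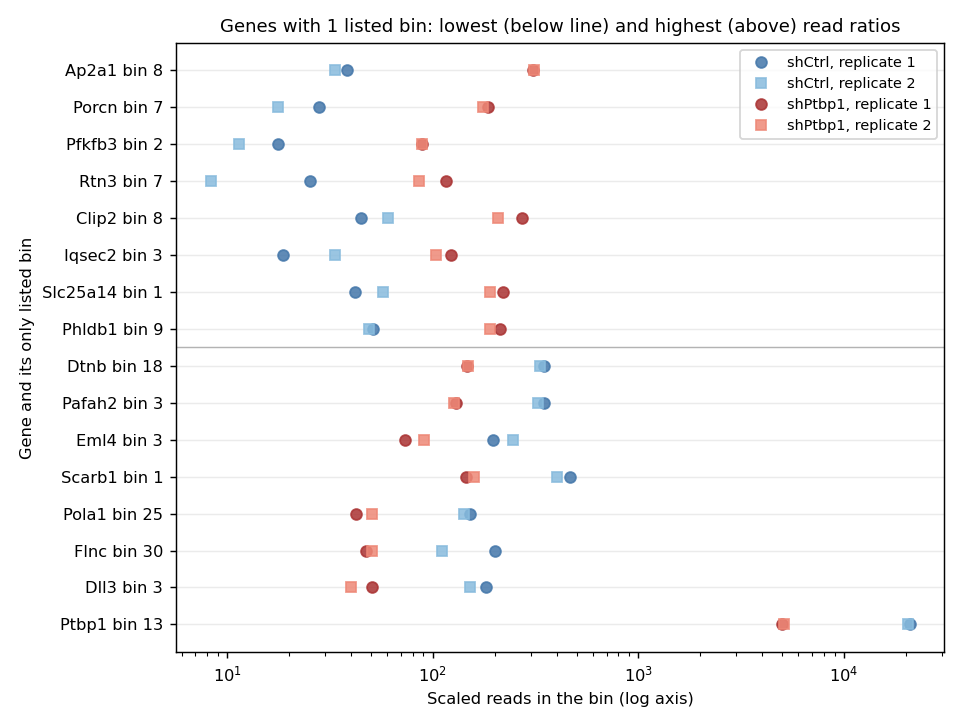
Scaled reads (log axis) of the only listed bin of 16 member genes with a mean of at least 50 reads, the 8 with the highest and the 8 with the lowest ratio. Each point is 1 library, blue for shCtrl and red for shPtbp1; in each gene both shPtbp1 libraries lie on 1 side of both controls, and Ptbp1 is at the bottom with the most reads.

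The members were then read by gene function, from 19 lists covering 1610 genes, of which 168 were members. For each list the leading bins give the counts, to be set beside 253 higher and 262 lower, a median log2 read ratio of 0.04 and a median absolute log2 ratio of 0.43 over all members. The lists were chosen with results of these data known, so a list's direction is not independent evidence. Among the lists with at least 5 members, the median of the leading bins was highest for synapse genes (1.02) and lowest for matrix genes (-0.60), over 8 and 5 genes.

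**Figure D5:**
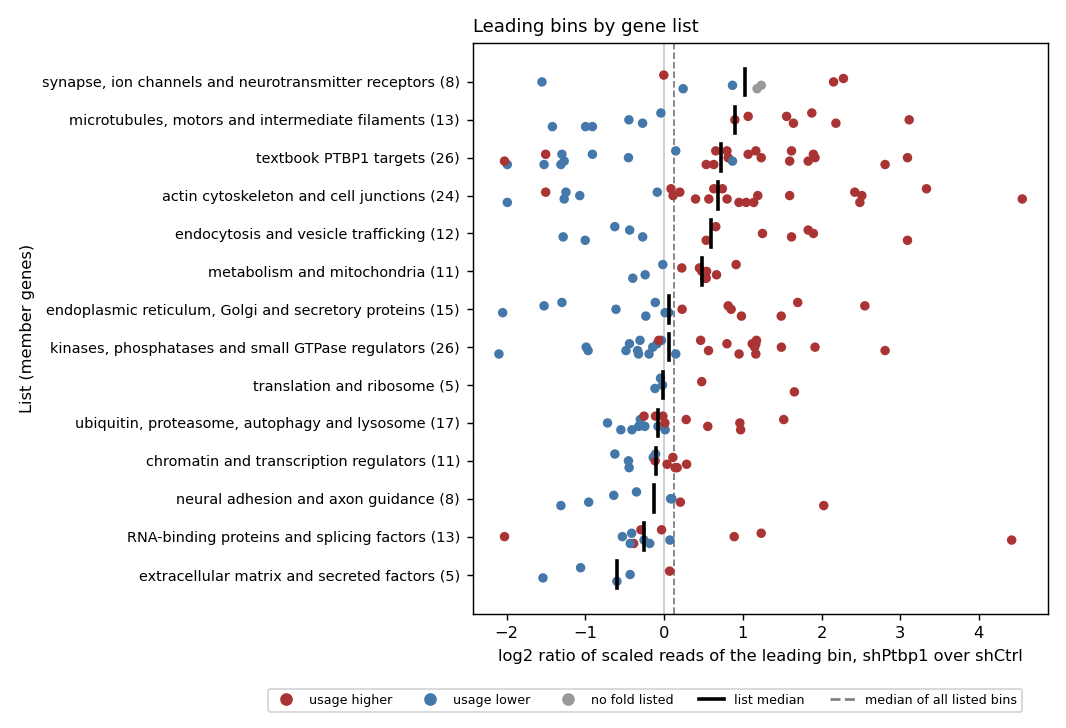
Log2 ratio of scaled reads of the leading bin of each member gene, shPtbp1 over shCtrl, for the 14 lists with at least 5 members. Points are genes, red where the authors' usage was higher, blue where lower and grey without a fold; black bars are list medians and the dashed line is the median of all listed bins, 0.13. Actin, endocytosis, microtubule, synapse and neural adhesion genes have points both below -1 and above 2. So do kinase, RNA-binding, endoplasmic reticulum and textbook PTBP1 target genes. Chromatin and metabolic genes lie within 1 of 0.

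Endocytosis and vesicle trafficking had 12 members in a list of 105 genes. All 12 of its genes in the Ptbp1 table were members, beside 527 of the 602 genes of the whole table. Usage of the leading bin rose in 7 and fell in 5, with a median log2 read ratio of 0.60. Clta, clathrin light chain A, held 77 and 77 control reads and 385 and 418 shPtbp1 reads in bin 5 and 75 and 66 against 262 and 248 in bin 4, both neighbours rising together. Picalm, a clathrin assembly protein gene, held 381 and 326 control reads and 481 and 508 shPtbp1 reads in bin 12.

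Exoc7, a subunit of the exocyst that tethers secretory vesicles, gained reads in both listed bins, with 70 and 81 control reads and 252 and 273 shPtbp1 reads in bin 7 and 183 and 150 against 337 and 299 in bin 13. Rufy3, linked to neuronal polarity, had 1423 and 1191 control reads and 3937 and 3812 shPtbp1 reads in bin 12, whose share was 42.7% ± 0.0264 in shCtrl and 58.6% ± 0.403 in shPtbp1. Its 3 other bins also held more reads but fell in usage. Tpd52l2, a gene of the tumour protein D52 family, exchanged bin 3 (1043 and 932 against 733 and 711) for bin 5 (834 and 659 against 1177 and 1091), and bin 5 took 42.9% ± 2.13 in shCtrl and 61.1% ± 0.763 in shPtbp1. Bin1, amphiphysin 2, which bends membranes through its BAR domain, lost reads in bin 11 with 910 and 876 control reads and 346 and 364 shPtbp1 reads and gained them in bin 6 with 97 and 85 against 152 and 172. The share of Bin1 bin 11 was 90.8% ± 0.557 in shCtrl and 68.7% ± 1.11 in shPtbp1.

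Actin cytoskeleton and cell junction genes had 24 members of 108 genes. Usage of the leading bin rose in 19 and fell in 5, and the median log2 read ratio was 0.69. Over all 50 bins, usage was higher in 34 and lower in 16. Pdlim5 and Pdlim7 encode PDZ-LIM proteins that dock kinases and other partners to alpha-actinin. Pdlim5 bin 9 held 14 and 7 control reads and 234 and 212 shPtbp1 reads and bin 10 held 4 and 1 against 59 and 67, so bin 6, although its reads also went from 191 and 176 to 508 and 566, had a lower share. Pdlim7 lost reads in its unsuffixed bin and bins 1 to 5, with 175 and 153 control reads and 46 and 33 shPtbp1 reads in bin 3, while bin 6 had a share of 61.9% ± 0.813 in shCtrl and 85.1% ± 0.900 in shPtbp1.

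Tpm3, a tropomyosin gene, lost reads in bin 5, with 3516 and 3030 control reads and 1335 and 1286 shPtbp1 reads. Plec, which encodes the cytolinker plectin, had no read in its bin 31 in either control and 8 and 14 in shPtbp1, at least 3.74-fold higher against a floor of 3 reads per library. Further members with a leading bin at least 2-fold higher in reads were Sorbs2, Ctnna2, Myo10, Magi3, Dst and Magi1, named after their values were seen. Sorbs2, an adaptor of the actin cytoskeleton, held 23 and 16 control reads and 102 and 103 shPtbp1 reads in bin 13. Ctnna2, the neuronal alpha-catenin that links cadherins to actin, held 11 and 13 control reads and 69 and 69 shPtbp1 reads in bin 1. Actn4, the crosslinker alpha-actinin 4, went the other way in bin 13, with 861 and 808 control reads and 398 and 370 shPtbp1 reads.

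Microtubule, motor and intermediate filament genes had 13 members of 96, with 7 leading bins higher in usage and 6 lower and a median log2 read ratio of 0.90. Dctn1 encodes p150Glued, the dynactin subunit that binds dynein and microtubules. Its bin 6 held 28 and 10 control reads and 148 and 170 shPtbp1 reads and its bin 5 held 5 and 5 against 24 and 35, so both listed bins were low in the controls. Klc1, kinesin light chain 1, held 886 and 848 control reads and 1932 and 1592 shPtbp1 reads in bin 13, whose share was 28.0% ± 1.52 in shCtrl and 43.2% ± 1.48 in shPtbp1. Map4, a microtubule-stabilizing protein gene, lost reads in bin 13 (1811 and 1622 against 878 and 886).

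Pde4dip, myomegalin of the centrosome and Golgi, had no read in bin 45 in the controls and 13 and 7 in shPtbp1, at least 3.38-fold higher against the same floor. Its unsuffixed bin held 31 and 19 control reads and 76 and 102 shPtbp1 reads. Kif21a, Clasp2 and Clasp1, a kinesin gene and genes of plus-end stabilizing proteins, also had a higher leading bin, named after their values were seen. Kif21a bin 26 held 30 and 26 control reads and 82 and 79 shPtbp1 reads, and Clasp2 bin 19 held 12 and 14 control reads and 34 and 47 shPtbp1 reads. With Clip2 and Eml4 above, the members of this list held both gains and losses of more than 2-fold.

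Of 68 genes known as PTBP1 targets from textbook knowledge, 32 were in the Ptbp1 table and 26 were members, among them many of the genes above. Usage of the leading bin rose in 17 and fell in 9, the median absolute log2 read ratio was 1.28, and scaled reads overlapped between groups in none of their 63 bins, where 91.4% of all listed bins had no overlap. Reads were at least 2-fold higher in the leading bin of 10 genes and at least 2-fold lower in 7, Ptbp1 included. Ganab, the catalytic subunit of glucosidase II, held 493 and 472 control reads and 855 and 789 shPtbp1 reads in bin 5. Src, the gene of a tyrosine kinase with a neuronal microexon, held 15 and 17 control reads and 34 and 37 shPtbp1 reads in bin 5. Sptan1, alpha-II spectrin, held 114 and 118 control reads and 169 and 180 shPtbp1 reads in bin 51. Src and Sptan1 were named after their values were seen.

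Neural adhesion and axon guidance genes had 8 members of 94, with 2 leading bins higher and 6 lower. The leading bins had a median log2 read ratio of -0.13. Over all 29 bins, 14 of them in Ncam1 alone, the median was 0.36. Pvrl3, nectin-3 of cell junctions, lost reads in bin 4 with 1030 and 966 control reads and 516 and 478 shPtbp1 reads and gained them in bins 2 and 3. The share of its bin 4 was 37.7% ± 1.94 in shCtrl and 19.2% ± 1.35 in shPtbp1. Sema4d, a membrane semaphorin, gained reads in bin 4 (168 and 162 against 432 and 501), and its unsuffixed bin had a share of 85.7% ± 0.964 in shCtrl and 68.5% ± 3.64 in shPtbp1. Neo1, neogenin, a receptor for netrins and repulsive guidance molecules, held 20 and 13 control reads and 64 and 68 shPtbp1 reads in bin 8. Chl1, an L1-family adhesion molecule, held 12972 and 11511 control reads and 7459 and 7719 shPtbp1 reads in bin 26. Nfasc, neurofascin, had more reads in its unsuffixed bin (11536 and 10712 against 16035 and 16226) and fewer in bin 10 (344 and 271 against 229 and 235).

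Synapse, ion channel and receptor genes had 8 members of 91, with 3 leading bins higher in usage, 3 lower and 2 without a fold. Gnao1 encodes the alpha subunit of the G protein Go, which couples GABA-B and other receptors, and Gabbr1 and Gabbr2 encode the GABA-B receptor. All 7 bins of Gnao1 held more reads, with 1740 and 1681 control reads and 3947 and 3781 shPtbp1 reads in bin 10 and 10911 and 9733 against 11649 and 11936 in bin 7, whose share was 70.8% ± 0.743 in shCtrl and 57.1% ± 0.562 in shPtbp1. Gabbr1 bin 14 held 761 and 619 control reads and 2044 and 2138 shPtbp1 reads. Its bins 2 and 3 also held more reads while their usage fell. Dlg3 (SAP102), of the postsynaptic density, had low counts in the controls, with 10 and 18 control reads and 63 and 63 shPtbp1 reads in bin 16. Gabbr2 bin 12 was near the floor in the controls, at 2 and 5 control reads and 9 and 8 shPtbp1 reads, and has no listed fold; its log2 ratio of 1.18 was 1.95 without shCtrl replicate 2. Slc1a2, the glutamate transporter GLT-1 of astrocytes, overlapped in its main bin 11 (54482 and 49186 against 48754 and 51160).

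Kinases, phosphatases and small GTPase regulators gave 26 members of 175 genes, with 13 leading bins higher and 13 lower. Their median log2 read ratio of 0.06 was -0.07 with scaling by the median of ratios. Rapgef1, an exchange factor for the GTPase Rap1, held 51 and 52 control reads and 332 and 373 shPtbp1 reads in bin 12 and 53 and 48 against 197 and 253 in bin 11, which are neighbours that rose together. Camk2b, the beta subunit of calcium/calmodulin-dependent kinase II, held 75 and 68 control reads and 261 and 264 shPtbp1 reads in bin 6. Ppp3ca, the catalytic subunit of calcineurin, held 737 and 665 control reads and 1158 and 1199 shPtbp1 reads in bin 12. Map4k4, a relative of Mink1, held 1508 and 1413 control reads and 2021 and 1880 shPtbp1 reads in bin 15.

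RNA-binding proteins and splicing factors had 13 members of 133, with 7 leading bins higher in usage and 6 lower and a median log2 read ratio of -0.26, Ptbp1 and Ptbp2 included. Celf1, a regulator of splicing and mRNA decay, gained reads in bins 10 and 11 and lost them in bins 1 and 14. Celf1 bin 10 held 545 and 456 control reads and 624 and 650 shPtbp1 reads, and bin 1 held 144 and 137 against 75 and 75. Pum2, a Pumilio repressor of translation, had no read in bin 5 in the controls and 10 and 10 in shPtbp1, at least 3.39-fold higher against the floor. Dicer1, the microRNA-processing nuclease, held 4387 and 3941 control reads and 3071 and 2977 shPtbp1 reads in its unsuffixed bin. Hnrnpd, which binds AU-rich elements, held 10118 and 9413 control reads and 7305 and 7143 shPtbp1 reads in its own. Luc7l3 overlapped in reads (7768 and 7291 against 7239 and 7011), so its call rests on usage relative to the rest of the gene.

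Chromatin and transcription regulators had 11 members of 155, with 6 leading bins higher in usage and 5 lower. Their leading bins had a median absolute log2 read ratio of 0.140, and none of the 11 changed 2-fold. In 31 further chromatin and transcription genes, grouped after the members were known, that median was 0.298, with 2 leading bins at least 2-fold higher in reads and 2 at least 2-fold lower. Med14, a subunit of Mediator, lost reads in its unsuffixed bin (3681 and 3351 against 2485 and 2510) and gained them in bin 1 (621 and 573 against 718 and 775). Cux1, a homeodomain repressor, lost reads in both bins, with 154 and 110 against 83 and 81 in bin 15. Nfia, a gliogenic transcription factor, held 19861 and 18253 control reads and 22989 and 21962 shPtbp1 reads in bin 11. Ehmt2 (G9a) held 1151 and 1021 against 1189 and 1165 in bin 9 and Smarca2 (BRM) 3692 and 3485 against 3122 and 3188 in bin 35.

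Endoplasmic reticulum, Golgi and secretory genes had 15 members of 119, with 7 leading bins higher in usage and 8 lower. Besides H13, Ktn1 had the farthest shift. Ktn1 encodes kinectin, a kinesin-binding protein of the endoplasmic reticulum. Its bin 37 held 361 and 345 control reads and 123 and 154 shPtbp1 reads, bin 40 held 564 and 575 against 741 and 764, and the share of bin 37 was 38.3% ± 1.08 in shCtrl and 15.5% ± 1.80 in shPtbp1. Aplp2, a relative of the amyloid precursor protein, held 1572 and 1388 control reads and 2573 and 2588 shPtbp1 reads in bin 4. Emc1, a subunit of the membrane protein insertase EMC, gained reads in bin 14 (796 and 773 against 1282 and 1386) and bin 20 (998 and 923 against 1574 and 1536), while its bin 23 overlapped. Rtn1, another reticulon, gained reads in bin 6 (351 and 288 against 633 and 586).

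Metabolic and mitochondrial genes had 11 members of 136, with 8 leading bins higher in usage and 3 lower and none changed 2-fold in reads. Atp5c1, the gamma subunit of ATP synthase, lost reads in bin 1, with 4854 and 4493 control reads and 3551 and 3313 shPtbp1 reads. Ndufv3, a subunit of respiratory complex I, lost reads in bin 2 (9726 and 8150 against 7752 and 7761) while its other 3 bins gained them. Ndufv3 bin 2 had a share of 29.1% ± 1.10 in shCtrl and 21.1% ± 0.664 in shPtbp1. Mff, a receptor for the mitochondrial fission machinery, gained reads in bin 5 (357 and 391 against 650 and 593) and bin 6 (1000 and 887 against 1510 and 1385). Aldoc, an aldolase that also marks astrocytes, held 9328 and 7897 control reads and 16298 and 15049 shPtbp1 reads in its unsuffixed bin. The usage fold of this bin in the authors' deposited table was 0.04 and its log2 read ratio 0.91, which are unlike measures. Idh3g and Agpat3 also held more reads, with 1876 and 1830 against 2552 and 2583 in Idh3g bin 10.

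Ubiquitin, proteasome, autophagy and lysosome genes had 17 members of 141, with 9 leading bins higher and 8 lower. Atp6v1h, a subunit of the proton pump of lysosomes and vesicles, lost reads in bin 6, with 1019 and 917 control reads and 604 and 533 shPtbp1 reads. March5, a ubiquitin ligase of mitochondria, held 10222 and 9083 control reads and 7148 and 6906 shPtbp1 reads in bin 5. Cops7a, a subunit of the COP9 signalosome, had a lower share in its unsuffixed bin, 13.8% ± 0.595 in shCtrl and 9.77% ± 0.0475 in shPtbp1. Psme3, an activator of the proteasome, held 14386 and 12897 against 10837 and 10545 in bin 10. Usp5 and Ube4a overlapped in reads. Fbxw11 (a beta-TrCP F-box protein), named after its values were seen, held 38 and 24 control reads and 81 and 91 shPtbp1 reads in bin 1, the only leading bin of this list at least 2-fold higher.

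Translation and ribosome genes had 5 members of 75, with 2 leading bins higher in usage and 3 lower. Mars, methionyl-tRNA synthetase, held 151 and 165 control reads and 513 and 457 shPtbp1 reads in bin 2. Rps24, a small-subunit ribosomal protein gene with a known alternative end, had 6 listed bins, of which bin 4 held 318 and 324 control reads and 639 and 547 shPtbp1 reads and bins 5 and 6 fell in usage. Bin 4 had 0.185% ± 0.0153 in shCtrl and 0.329% ± 0.0216 in shPtbp1 of the listed reads. Eif5a, of the hypusinated translation factor, held 215 and 174 control reads and 287 and 236 shPtbp1 reads in bin 7. Ribosomal protein, tropomyosin, tubulin and histone genes have near-identical copies or pseudogenes, and how shared reads were counted, and whether strand was used, is not given in the sources used here, so their counts are uncertain.

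Matrix and secreted factor genes had 5 members of 99, with 1 leading bin higher in usage and 4 lower. Vcan, the proteoglycan versican, lost reads in both bins, with 2582 and 2652 control reads and 824 and 921 shPtbp1 reads in bin 7 and 2783 and 2826 against 1588 and 1767 in bin 8, and bin 7 had a share of 48.3% ± 0.202 in shCtrl and 34.2% ± 0.0713 in shPtbp1. Thbs2, a thrombospondin that astrocytes secrete, held 16599 and 14632 control reads and 10059 and 9847 shPtbp1 reads in its unsuffixed bin. Cd44, the hyaluronan receptor, held 171 and 158 control reads and 77 and 75 shPtbp1 reads in bin 4. Agrn, agrin, lost reads in bin 5 (666 and 649 against 470 and 474). Thbs3 overlapped in reads (1214 and 989 against 1182 and 1049).

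Cell type markers are to be set beside 168 members in 1610 genes over all lists, and 527 members in the 602 genes of the Ptbp1 table. Among 31 markers of neural stem cells and astrocytes, 8 were in the Ptbp1 table and 4 were members (Aldoc, Fgfr2, Egfr and Slc1a2). Of 29 transit-amplifying cell and neuroblast markers, 3 were in the table and 2 were members (Ncam1 and Meis2). Of 21 oligodendrocyte-lineage markers, 2 were in the table and 1 was a member (Nfasc). None of 25 microglial and vascular or 15 ependymal markers was in the table. The tables list called bins only, so they cannot give the level of a marker or check the labelled cell type against its defining genes, and a part of cell makeup in these values was not tested. Egfr, the EGF receptor, gained reads in its unsuffixed bin (794 and 676 against 908 and 847), and its main bin 27 held 9905 and 8879 against 8616 and 8442. Fgfr2, an FGF receptor, held 334 and 284 control reads and 337 and 324 shPtbp1 reads in bin 15, with a usage fold of -0.29 in the authors' deposited table. Meis2, a homeodomain factor of neuroblasts, held 766 and 679 control reads and 643 and 652 shPtbp1 reads in bin 1. Capn11, a calpain gene on none of these lists, had no read in its unsuffixed bin in the controls and 5 and 4 in shPtbp1, at least 1.52-fold higher against the floor.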

How the data were processed

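Per the labels' protocols, RNA was extracted with Trizol and made into strand-specific, poly(A)-selected libraries. The submitters' processing notes name the build mm9 and, among other tools, TopHat2 2.0.10 and Cuffdiff 2.1.1. How bins were defined and counted, and with which version of DEXSeq, is not given in the sources used here. Per the file headers, the authors deposited for each called bin raw counts in 4 libraries, a mean signal, a p-value and an adjusted p-value, a log2 fold, and the scores of their model (dispersion, test statistic and fitted usage).

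Members are the genes of the shPtbp1 table whose Entrez number has no row in the shPnky table. The members and the gene lists were chosen with earlier results of these data known, and 15 further lists were added after the members' symbols were seen. Bin numbers were read from row names. Symbols are those of the files, and 523 of 527 Entrez numbers were found in the RefSeq gene table. The bins carry no coordinates and the reference has another build, so no sequence or position is given.

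Counts were scaled by each library's sum over the listed bins, and 0.5 was added to group means before log2. Shares use raw counts. The rule used this contrast, so no test was made. The share and ratio code was tested on simulated data. The genes named were Ptbp1 and Ptbp2, the 15 with the largest share difference among genes with a mean of at least 200 listed reads, the 8 highest and 8 lowest count ratios among genes with 1 bin and at least 50 reads, up to 5 bins without a control read, and up to 6 genes per list with the smallest adjusted p. Other genes named, Atat1 among them, were chosen after their values were seen. Not every gene that met the rule is described, and some results are not reported here. The settings varied were the adjusted p (0.001), a minimum mean of 50 reads, absence by bin, other scalings, 5 reads added, a log2 ratio to the other listed bins, all bins against 1 per gene, and leaving out each library. Python 3.11.15, numpy 2.4.6, pandas 2.3.3 and matplotlib 3.10.9 were used.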

Additional observations from a re-analysis of the deposited data

How the results depend on the processing

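No paired analysis was possible because the results come from no test. An authors' adjusted p under 0.001 left 327 genes and 479 bins, 262 higher and 213 lower in usage, of which 438 did not overlap in scaled reads (253 higher, 185 lower), 221 did not overlap in shares and 124 had a higher share. Scaling by the median of ratios gave a median log2 ratio of -0.025 for the member bins, with list medians of -0.066 for kinases and -0.065 for endoplasmic reticulum genes. It also gave -0.050 for Rbms2, -0.053 for Thbs3 and -0.11 for Ube4a. The kinase median was -0.034 under an adjusted p under 0.001, -0.068 with at least 50 reads and -0.079 over all listed bins. Over all listed bins the medians were 0.36 for neural adhesion, where 14 of 29 bins were in Ncam1, and 0.10 for translation. These changes come with the rescaling itself or with the bins counted. Leaving out each library in turn, the log2 ratio ranged from -0.010 to 0.038 for Ube4a, from -0.044 to 0.013 for Usp5, from -0.065 to 0.00056 for Luc7l3 and from -0.0039 to 0.14 for Thbs3. The share difference ranged from -3.73 to 0.558 points for Mff bin 6 and from -0.362 to 17.8 for Dctn1 bin 6. The other 72 values of the main counts and medians kept their sign and stayed within 1.5-fold or within the spread between replicates. Counts cover called bins only, and 63 member bins had a mean under 50 reads, where shares and ratios are least precise.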

Other observations

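Further families were grouped after the members' symbols had been seen, so their directions support nothing beyond their values. All 3 septin genes among the members gained reads in at least 1 bin. Sept4 bin 1 held 133 and 122 control reads and 303 and 321 shPtbp1 reads and Sept8 bin 9 held 11923 and 10322 control reads and 15562 and 15532 shPtbp1 reads. Genes of DNA replication, repair and the cell cycle had 17 members, with 8 leading bins higher in usage and 9 lower. Several held fewer reads and others more, with a median log2 read ratio of -0.16 over the leading bins. Reads were at least 2-fold higher in 1 of these bins (Nek6) and at least 2-fold lower in 1 (Pola1). Tyms, thymidylate synthase, held 1818 and 1472 control reads and 855 and 804 shPtbp1 reads in its unsuffixed bin, and Ccnd2, cyclin D2, held 4224 and 3825 control reads and 2424 and 2419 shPtbp1 reads in bin 4. Brip1, a DNA repair helicase gene, held 1149 and 1052 control reads and 651 and 671 shPtbp1 reads. The usage folds of Tyms, Ccnd2 and Brip1 in the authors' deposited table were 0.14, 0.05 and -0.11. Over all member bins the median absolute usage fold was 0.148, so folds of this size are usual. Xrcc5, the Ku80 gene of DNA end joining, split instead, with 975 and 923 against 867 and 874 in bin 13 and more reads in its 5 bins from 16 to 20.

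Membrane transporters had 16 members, with 12 leading bins higher in usage and 4 lower, and zinc finger genes 15, with 3 higher and 12 lower. RNA processing, export and decay genes were balanced, at 13 and 13 of 26. Ybx3, a cold-shock domain protein gene, held 2074 and 1847 control reads and 1030 and 1016 shPtbp1 reads in bin 4, and Serbp1, an mRNA-binding protein gene, held 10878 and 9893 control reads and 6621 and 6361 shPtbp1 reads in bin 6. Among long noncoding RNA genes, Pvt1 gained reads in 4 bins and lost them in bin 8 (2923 and 2658 against 2370 and 2367), Meg3 bin 2 held 123 and 85 against 268 and 264, and Trp53cor1 held 879 and 747 control reads and 1658 and 1688 shPtbp1 reads in its unsuffixed bin. Of 4 gamma-protocadherin genes, which share their last exons, Pcdhgc5 held 3084 and 2736 control reads and 4695 and 5018 shPtbp1 reads and the other 3 overlapped. Ahnak, a giant scaffold protein gene, held more reads in all 5 bins, with 122 and 126 control reads and 523 and 590 shPtbp1 reads in bin 3. Arid3c bin 2 had no read in shPtbp1 and 2 and 9 in the controls.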
